A study of Mus musculus with 13 samples.

Results

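The microglial genes described here are 35 genes of the deposited count table that are known markers of microglia, chosen by gene name, of 55421 gene identifiers in all. Each of the 35 names matched 1 identifier, and all 35 were among the 23622 genes that passed the filter on low counts. The counts come from bulk RNA sequencing of the arcuate nucleus, a region at the base of the hypothalamus that holds feeding-related neurons, in 13 mice with 1 library each. The groups were KO on high-fat diet (HFD, 3 mice), control littermates on HFD (4 mice), KO on chow (3 mice) and control littermates on chow (3 mice). KO mice carried Agrp-Cre, which expresses Cre recombinase under Agrp, together with Klf4-flox, so that the deletion of Klf4 is directed to Agrp-expressing cells and not to microglia. Whether the controls carried Cre is not given in the labels. All mice were 20 weeks old at collection, and the HFD groups had been switched at 10 weeks of age and fed HFD for 10 weeks.

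Microglia are the resident macrophages of the brain parenchyma. At rest they are recognised by surface genes such as P2ry12, a receptor for nucleotides, Tmem119 and Cx3cr1, the receptor of the neuronal chemokine fractalkine. They are a main source of complement C1q in the brain, and the lipid receptor Trem2, signalling through its adaptor Tyrobp, is needed for the lipid-handling state they take on around damaged myelin and lipid debris. In the arcuate nucleus of mice, microglia are known for their response to high-fat feeding.

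The transcription factor PU.1, encoded by the member Spi1, drives microglial and macrophage genes and binds a purine-rich core. The letters GAGGAAG, or CTTCCTC on the other strand, were searched in the 250 bases before the RefSeq start (GRCm38.p6) of the 26 members matched in the promoter table used. The other 9, Tmem119, Csf1r, Gpr34, Selplg, C1qa, Tyrobp, Itgb2, Hcar2 and Spi1, are not part of this search. The core was in the promoter of 10 of these 26 genes (38.5%) and in that of 12% of all 27025 genes searched. The composite element that PU.1 binds with an IRF partner was in 0 of the 31 member windows and in 2.30% of all 32851 windows. These are matches of letters in short windows and not measured sites. The stretches just before a RefSeq start of 8 of the 10 genes are shown 5′ to 3′ with the core in capitals, because the gene of PU.1 is itself a member and most of these genes are described below. Their positions are chr4:136892915-136893114 (minus strand) for C1qc, chr17:48346301-48346400 (plus) for Trem2, chr4:130913216-130913315 (plus) for Laptm5 and chr1:171059404-171059503 (minus) for Fcgr3. They are chr7:128062540-128062639 (plus) for Itgam, chr1:87620212-87620311 (plus) for Inpp5d, chr3:59210883-59210982 (minus) for P2ry13 and chr3:87263525-87263674 (minus) for Fcrls. In the GENCODE M21 gene models, which can start at another promoter, the stretches of Laptm5, Fcgr3 and Fcrls lie wholly inside the gene and that of C1qc partly inside it. The stretches of Trem2, Itgam, Inpp5d and P2ry13 end at the base before the GENCODE start.
C1qc: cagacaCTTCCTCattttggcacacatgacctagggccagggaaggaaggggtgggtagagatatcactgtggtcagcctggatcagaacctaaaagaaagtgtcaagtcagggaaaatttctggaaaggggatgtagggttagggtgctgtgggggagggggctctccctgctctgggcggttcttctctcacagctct
Trem2: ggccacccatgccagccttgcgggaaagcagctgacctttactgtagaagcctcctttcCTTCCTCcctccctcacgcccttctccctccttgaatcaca
Laptm5: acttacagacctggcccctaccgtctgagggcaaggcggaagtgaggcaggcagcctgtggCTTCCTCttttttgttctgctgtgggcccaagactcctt
Fcgr3: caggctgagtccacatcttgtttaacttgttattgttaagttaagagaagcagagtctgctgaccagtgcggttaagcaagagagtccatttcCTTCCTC
Itgam: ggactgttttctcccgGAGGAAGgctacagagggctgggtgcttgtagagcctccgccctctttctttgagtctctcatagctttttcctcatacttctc
Inpp5d: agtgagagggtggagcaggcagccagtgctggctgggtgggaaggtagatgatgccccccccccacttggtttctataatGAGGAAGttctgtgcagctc
P2ry13: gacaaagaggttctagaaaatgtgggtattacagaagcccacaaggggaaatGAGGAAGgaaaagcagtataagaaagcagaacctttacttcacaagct
Fcrls: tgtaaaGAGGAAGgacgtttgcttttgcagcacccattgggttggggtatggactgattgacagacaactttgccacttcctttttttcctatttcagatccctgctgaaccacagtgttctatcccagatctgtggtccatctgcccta

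The first base of the core lay 41 bases before the RefSeq start of Trem2, 39 before that of Laptm5, 20 before that of Inpp5d and 48 before that of P2ry13. In Fcgr3 it lay 7 bases and in Itgam 84 bases before the start. In C1qc it lay 194 bases and in Fcrls 144 bases before the start. The other genes with the core were Cd33 and Slco2b1, both at 226 bases.

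Library totals ranged from 34.7 to 68.2 M counts, and levels below are CPM, the count scaled to a common library total, unless stated otherwise. Klf4, the targeted gene, was at 2.40, 5.39 and 5.95 CPM in KO on HFD, against 1.58, 5.61, 3.10 and 4.04 CPM in controls on HFD. Under chow it was at 2.14, 3.12 and 2.74 CPM in KO mice, against 3.20, 2.37 and 2.59 CPM in controls. The genotypes overlapped, so in whole tissue, where other cells also express Klf4, the gene does not check the labels. A pair of libraries goes against its labels. Hsd11b2, a gene near Agrp, was at 60.7 to 68.5 CPM in the KO libraries and 0.348 to 1.55 CPM in 6 control libraries, but at 63.6 CPM in the library labelled Control_HFD replicate 3. The library labelled Control_Chow replicate 3 has the sex letter F, but Xist was at 0.674 CPM in it, where F libraries otherwise held 38.2 to 64.5 CPM, and its Y-linked genes summed to 180.1 CPM. By the reads, KO on chow held 1 male and 2 female mice and the chow controls 3 males and 0 females. The titles number HFD and chow mice in separate ranges, so diet cannot be told apart from a batch that followed that numbering. Several results below are also given without the pair of libraries that goes against its labels. Both are in the diet comparison in controls.

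The 35 genes together took 955, 998 and 1343 CPM in KO on HFD and 839, 1279, 844 and 1108 CPM in controls on HFD. The chow libraries were at 719, 1008 and 989.8 CPM for KO mice, against 808, 601 and 671 CPM for control mice. The lowest pair of libraries were both chow controls and the highest 3 were all HFD libraries, while KO on chow overlapped every other group. In bulk tissue, fewer microglia and less RNA per microglial cell cannot be told apart.

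On the deposited scale that also divides by transcript length (RPKM), the most abundant members were C1qb at a median of 84.5 over the 13 libraries and Ctss, which encodes the lysosomal protease cathepsin S, at 84.2. They were followed by C1qa at 41.3, C1qc at 30.6, Csf1r, the receptor on which microglial survival depends, at 22.7 and Tyrobp at 22.4. There were 11 members at a median of at least 10 RPKM and 4 under 1 RPKM. The lowest 4 included Cd33, a sialic acid-binding receptor, at 0.687 and Hcar2, a receptor for hydroxybutyrate and nicotinic acid, at 0.315. With them were Ptprc, the leukocyte phosphatase CD45, at 0.268 and Apbb1ip, an integrin-activating adaptor, at 0.260. All the defining surface markers were thus present, with P2ry12 at 12 and Tmem119 at 13 RPKM.

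**Figure D1:**
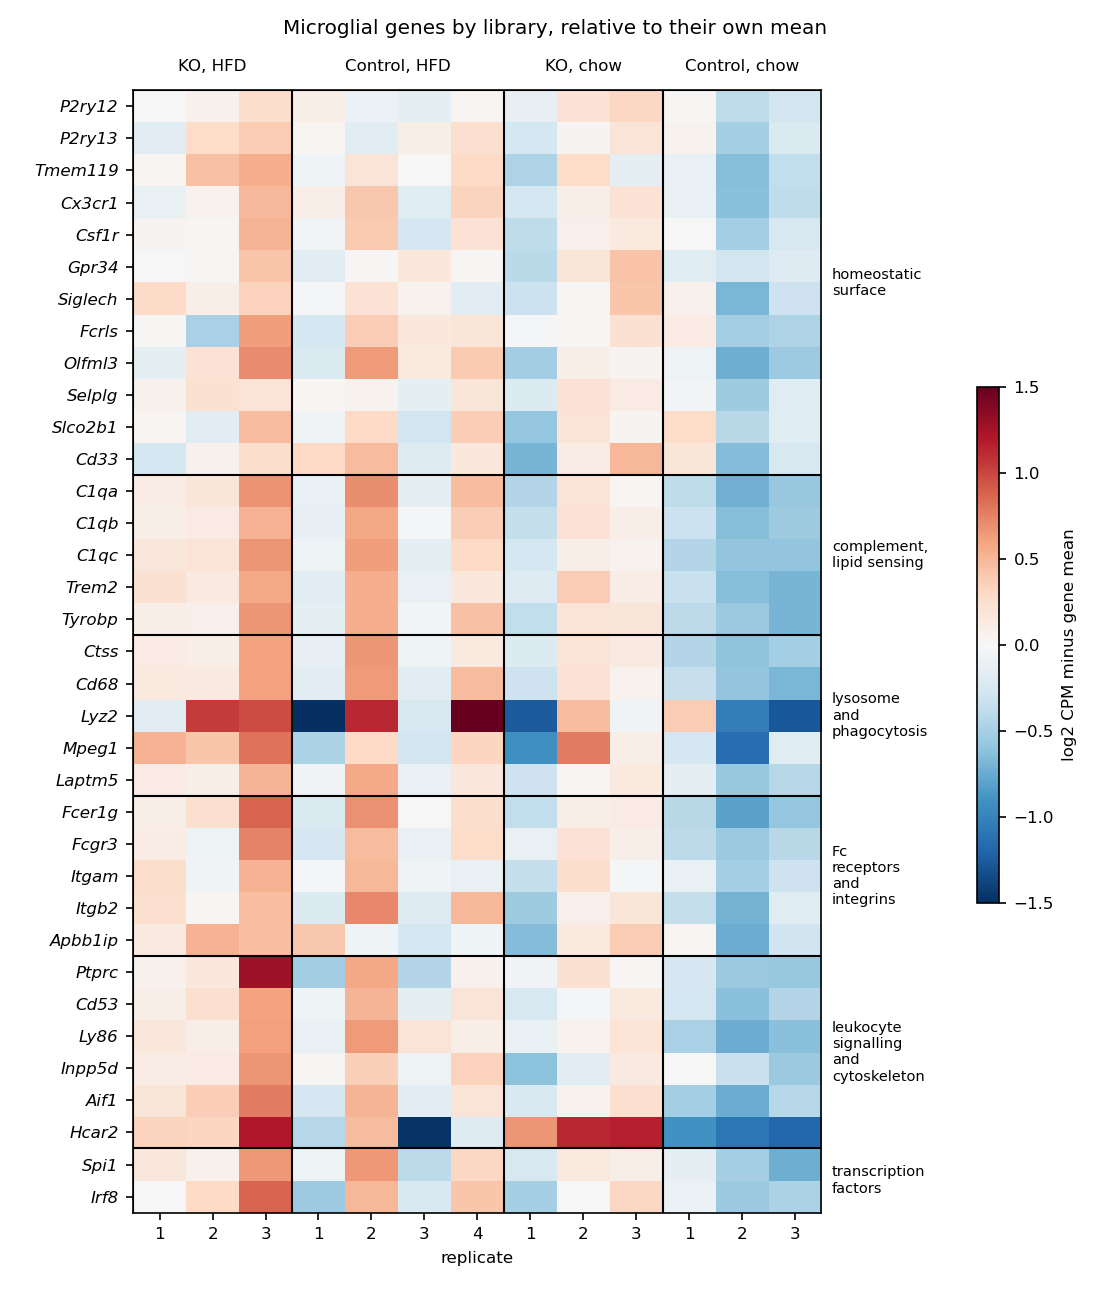
Level of each of the 35 microglial genes (rows, grouped by role) in each of the 13 libraries (columns, grouped by genotype and diet), as log2 CPM minus the gene's mean over libraries; colours are capped at 1.5 in either direction. Most genes share 1 pattern per library, with KO on HFD replicate 3 and Control on HFD replicate 2 high. Control on chow replicates 2 and 3 are low. Lyz2, Mpeg1 and Hcar2 depart most from the pattern.

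Most of the genes moved together from library to library. Once the median deviation of the 35 genes in each library was taken off, the remaining standard deviation of log2 CPM was 0.06 for Laptm5, a lysosomal membrane protein of blood and immune cells, 0.08 for Cd53, a leukocyte tetraspanin, and 0.09 for C1qb. It was largest for Lyz2, lysozyme of macrophages, at 0.77, Hcar2 at 0.68 and Mpeg1, which encodes the pore-forming protein perforin-2, at 0.36. In some homeostatic surface genes, taking off the median did not lower the standard deviation. It went from 0.192 to 0.248 for P2ry12, from 0.245 to 0.254 for P2ry13 and from 0.236 to 0.237 for Gpr34. For Selplg it went from 0.216 to 0.204. The C1q chains kept nearly fixed proportions. C1qa made up 21.3 to 24.3% of the summed C1q count, C1qb 44.1 to 48.7% and C1qc 28.9 to 32.3% over the 13 libraries. They are neighbours on the minus strand of chromosome 4 within 18.7 kb, with C1qb at 136880129 to 136886187, C1qc at 136889804 to 136893065 and C1qa at 136895917 to 136898803 (GRCm38, GENCODE M21).

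In HFD against chow in control mice, all 35 genes had a log2 fold change above 0, where 51% of all tested genes did, with a median of 0.52 over the 35 and of 0.01 over all genes. No member, and no other gene, passed an adjusted p of 0.05 in edgeR's quasi-likelihood test (smallest adjusted p 0.56 among members). At an unadjusted p under 0.05, 18 of the 35 were higher and 0 lower, while 4.16% of all genes were higher and 3.91% lower at that level. DESeq2 and voom placed 19 and 17 members under that level, and DESeq2 called 2 members at an adjusted p under 0.05, C1qc and Ly86, among 46 genes in all. In 15 members every HFD control lay above every chow control, against 4.88% of all genes, and the opposite order held for 0 members and 4.87% of all genes. Since most of the 35 genes moved together over the libraries, counts of members here and below are not counts of separate observations.

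**Figure D2:**
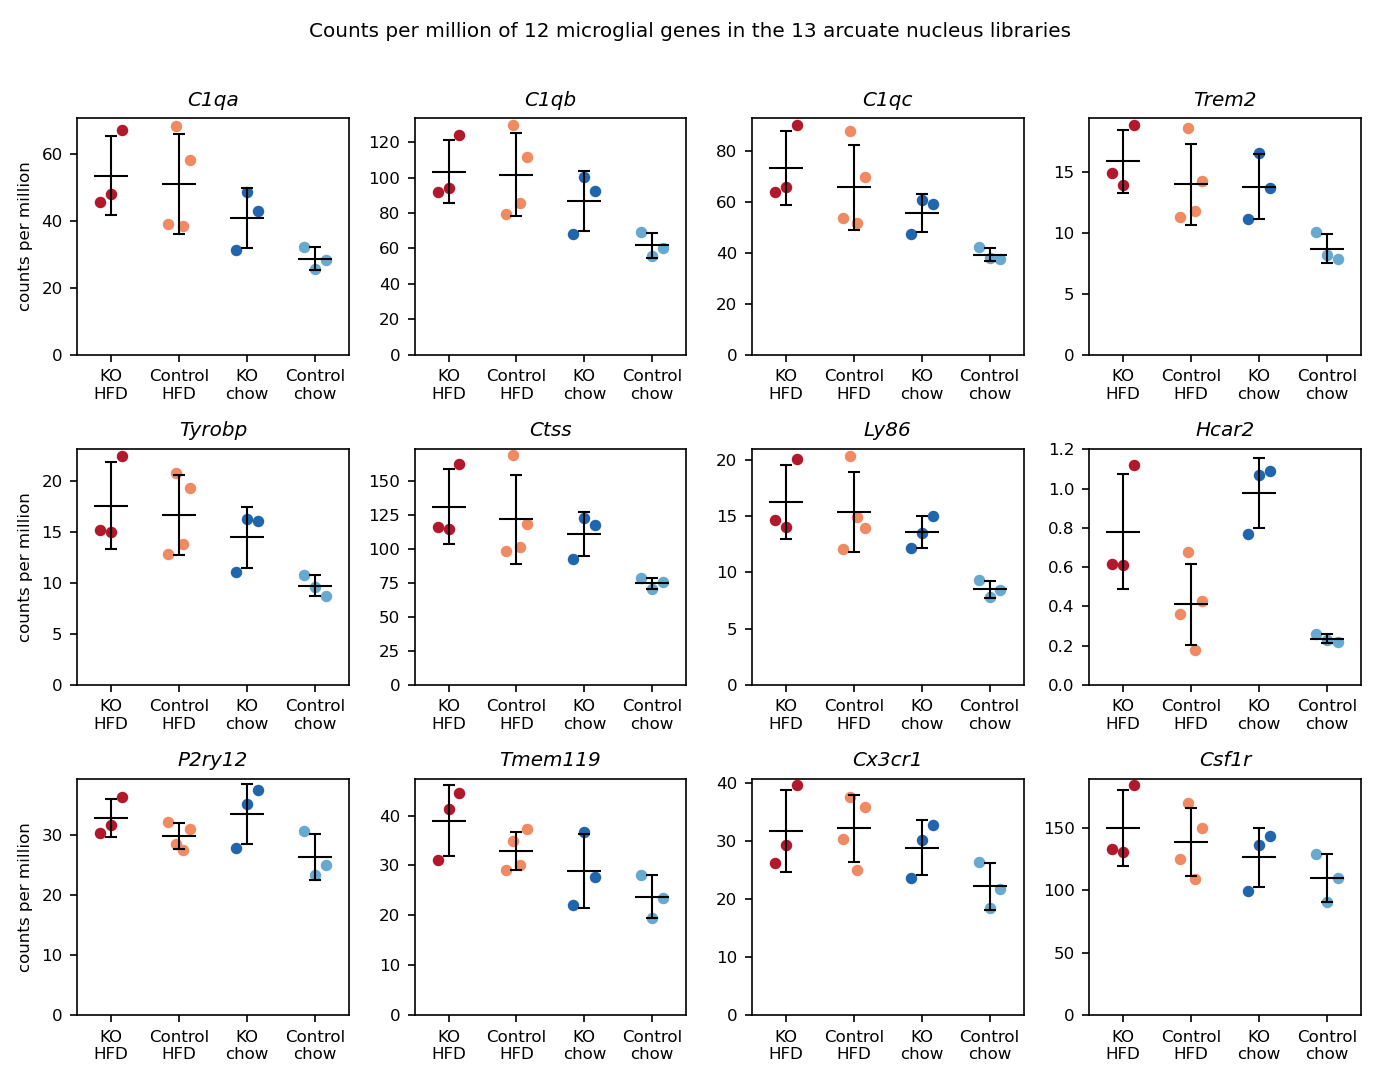
CPM of 12 microglial genes in the 13 libraries, by group; each point is 1 library and the bar is the group mean with its SD (n = 3, or 4 for controls on HFD). Ly86 in chow controls stays between 7.79 and 9.30 CPM, below all other libraries, whereas P2ry12 overlaps between all groups.

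The complement and lipid-sensing genes had the largest median of the role groups in this comparison, 0.73 on the log2 scale, and all 5 had an unadjusted p under 0.05. The median was 0.68 for lysosome and phagocytosis and 0.59 for leukocyte signalling. For Fc receptors and integrins it was 0.55 and for the transcription factors 0.50, so the larger difference was not particular to complement and lipid sensing. C1qa, the A chain of C1q, was at 38.9, 68.5, 38.4 and 58.2 CPM in HFD controls and 32.3, 25.6 and 28.4 CPM in chow controls. C1qb, the B chain, was at 79.7, 129.7, 85.6 and 112 CPM in HFD controls and 69.5, 55.5 and 60.1 CPM in chow controls. C1qc, the C chain, was at 53.8, 87.6, 51.7 and 69.7 CPM in HFD controls and 42.1, 37.7 and 37.6 CPM in chow controls. None of the 3 chains overlapped between the diets, and replicates 2 and 4 were the high HFD libraries in each. Their log2 fold changes were 0.79 ± 0.22, 0.69 ± 0.18 and 0.73 ± 0.18 (SE), with edgeR adjusted p of 0.56 for each. Trem2 (chromosome 17, 48346401 to 48354147, plus strand) was at 11.3, 18.6, 11.8 and 14.2 CPM in HFD controls and 10.1, 8.16 and 7.87 CPM in chow controls. Tyrobp, its adaptor, was at 12.8, 20.7, 13.8 and 19.3 CPM in HFD controls and 10.8, 9.63 and 8.73 CPM in chow controls. Neither overlapped, with differences of 0.67 ± 0.19 for Trem2 and 0.74 ± 0.20 for Tyrobp (adjusted p 0.56 in edgeR for both).

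Among the leukocyte signalling genes, Ly86, the MD-1 partner of the Toll-like receptor homologue RP105, had the smallest p of all members. It was at 12.1, 20.4, 15.0 and 14.0 CPM in HFD controls and 9.30, 7.79 and 8.46 CPM in chow controls. Every HFD control lay above every chow control, and the log2 fold change was 0.83 ± 0.17 (95% interval 0.45 to 1.21, edgeR adjusted p 0.56). Cd53 differed by 0.57 ± 0.18 and Aif1, the actin-bundling protein IBA1 used to stain microglia, by 0.62 ± 0.20. Ptprc and Inpp5d, the inositol phosphatase SHIP1, differed by 0.41 ± 0.32 and 0.42 ± 0.20, with overlapping groups.

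Lysosomal genes followed. Ctss was at 98.7, 169, 101 and 118 CPM in HFD controls and 78.8, 70.6 and 75.5 CPM in chow controls, without overlap, a difference of 0.68 ± 0.18. Cd68, a lysosomal glycoprotein of phagocytes, was at 7.75, 13.6, 7.77 and 12.1 CPM in HFD controls and 6.88, 5.77 and 5.44 CPM in chow controls, again without overlap and with a difference of 0.75 ± 0.22. Laptm5 differed by 0.52 ± 0.18, and Mpeg1 by 0.41 ± 0.33 with overlapping groups. The immunoglobulin Fc receptor genes Fcer1g, the shared signalling chain, and Fcgr3, a low-affinity IgG receptor, differed by 0.77 ± 0.23 and 0.55 ± 0.20 without overlap. The integrin genes Itgb2 and Itgam, which form complement receptor 3, differed by 0.63 ± 0.25 and 0.38 ± 0.19 and overlapped. Spi1 differed by 0.61 ± 0.25 and Irf8, the other lineage transcription factor of the list, by 0.39 ± 0.28, and both overlapped.

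The 12 homeostatic surface genes had a lower median, 0.30, and 3 of them had an unadjusted p under 0.05. Tmem119 was at 29.2, 34.8, 30.2 and 37.3 CPM in HFD controls and 28.1, 19.5 and 23.5 CPM in chow controls, without overlap, with a difference of 0.41 ± 0.16. Cx3cr1 was at 30.4, 37.7, 25.0 and 35.8 CPM in HFD controls and 26.3, 18.4 and 21.8 CPM in chow controls. The groups overlapped in 1 library of each diet, and the difference was 0.51 ± 0.18. The third, Olfml3, a secreted olfactomedin-domain protein, differed by 0.64 ± 0.24. P2ry12 was at 32.2, 28.5, 27.6 and 31.0 CPM in HFD controls and 30.7, 23.3 and 25.0 CPM in chow controls, with a difference of 0.16 ± 0.12 (95% interval -0.11 to 0.42). Csf1r was at 125, 170.3, 109 and 150.3 CPM in HFD controls and 129, 91.0 and 109.7 CPM in chow controls, a difference of 0.31 ± 0.18. Both overlapped. The remaining 7, P2ry13, Gpr34, Siglech, Fcrls, Selplg, Slco2b1 and Cd33, had log2 fold changes between 0.15 and 0.37, and of these only Gpr34 did not overlap.

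**Figure D3:**
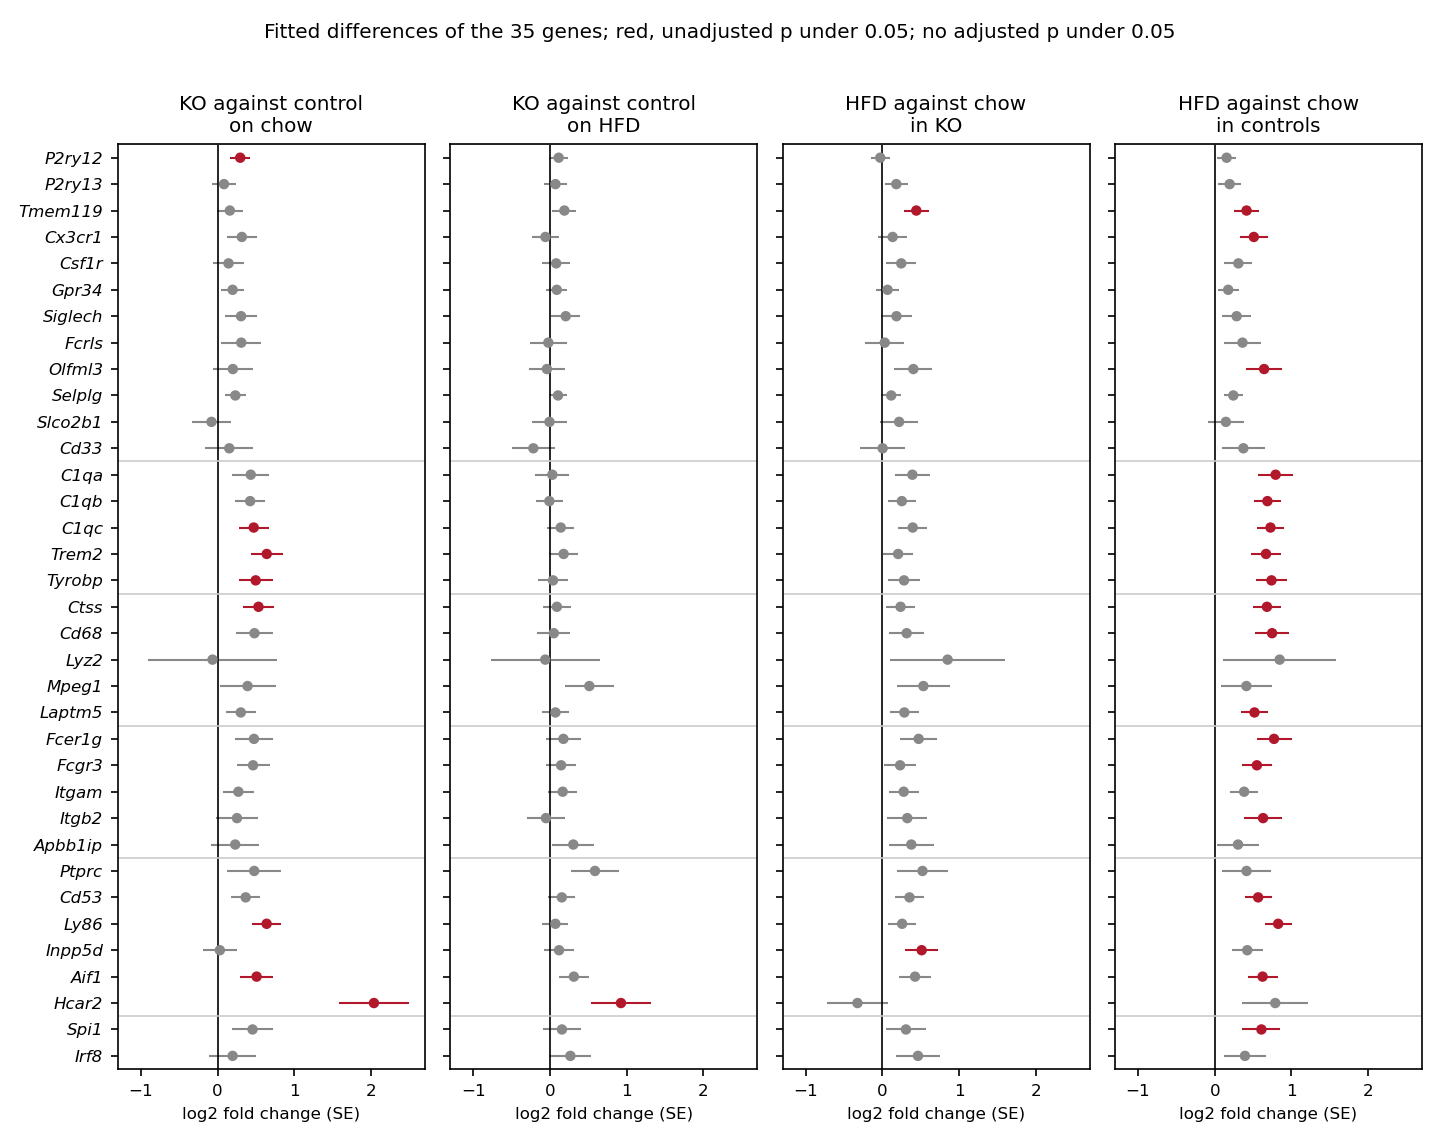
Log2 fold change with its SE (edgeR, all 13 libraries in 1 fit) of the 35 genes in 4 comparisons, in the same gene order and role groups as the heat map; points in red had an unadjusted p under 0.05. In controls all 35 HFD differences lie right of 0, with the complement and lipid-sensing genes between 0.67 and 0.79 and P2ry12 at 0.16.

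This comparison depended in size on a few libraries. Without Control_HFD replicate 2, the median of the 35 was 0.34, and it was 0.65 without Control_Chow replicate 1. The count at an unadjusted p under 0.05 was 11 without Control_Chow replicate 2. All 35 genes kept a log2 fold change above 0 in each of the other settings tried. These include no sex term, a sex term from the reads, and the fit without both libraries that go against their labels. By the reads, the HFD controls held 2 males and 2 females and the chow controls 3 males and 0 females. Part of the difference in sex thus falls together with diet here, and its part in the result was not tested beyond these fits.

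KO against control on chow showed a smaller difference in the same direction. Of the 35 genes, 33 had a log2 fold change above 0 (49.6% of all genes did), with a median of 0.31 over the 35 and -0.00 over all genes. No gene passed an adjusted p of 0.05 in edgeR (smallest adjusted p 0.26), and 8 members were higher and 0 lower at an unadjusted p under 0.05. That level held 6.84% of all genes as higher and 6.07% as lower. DESeq2 and voom placed 10 and 7 members there and called 0 members after adjustment, with 333 and 0 genes called in all. In 12 members every KO lay above every control, against 10.7% of all genes, and the opposite order held for 0 members and 8.81% of all genes. This comparison and the diet comparison in controls share the 3 chow controls.

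Hcar2 (chromosome 5, 123863570 to 123865499, minus strand) had the largest difference of the members. It was at 0.769, 1.07 and 1.09 CPM in KO on chow and 0.259, 0.230 and 0.216 CPM in chow controls. These levels rest on 50, 40 and 43 counts in KO on chow and 9, 10 and 8 counts in chow controls. The groups were well apart, with a log2 fold change of 2.04 ± 0.46 (95% interval 1.03 to 3.04) and an edgeR adjusted p of 0.26, and the value ranged from 1.81 to 2.30 over the other settings. Hcar1, the neighbouring lactate receptor gene of the same family, did not share this pattern, with 0.631, 3.60 and 0.558 CPM in KO on chow and 5.87, 1.03 and 0.593 CPM in chow controls. The sources used here do not say how reads common to related genes were counted.

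The next largest differences with an unadjusted p under 0.05 were in Ly86 and Trem2. Ly86 was at 12.2, 13.5 and 15.0 CPM in KO on chow and 9.30, 7.79 and 8.46 CPM in chow controls, a difference of 0.64 ± 0.19 (adjusted p 0.26 in edgeR). Trem2 was at 11.2, 16.5 and 13.7 CPM in KO on chow and 10.1, 8.16 and 7.87 CPM in chow controls, a difference of 0.64 ± 0.21 (adjusted p 0.27 in edgeR). Neither gene overlapped between genotypes. C1qc, Tyrobp, Ctss and Aif1 differed by 0.47 ± 0.19, 0.50 ± 0.22, 0.53 ± 0.20 and 0.51 ± 0.21 and did not overlap either. P2ry12, the eighth, was at 27.8, 35 and 37.5 CPM in KO on chow and 30.7, 23.3 and 25.0 CPM in chow controls. Its groups overlapped, and it differed by 0.30 ± 0.13 (adjusted p 0.38 in edgeR).

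By role, the median log2 fold change on chow was 0.47 for complement and lipid sensing, 0.49 for leukocyte signalling, 0.39 for lysosome and phagocytosis, 0.33 for the transcription factors, 0.27 for Fc receptors and integrins and 0.20 for homeostatic surface genes. C1qa and C1qb differed by 0.43 ± 0.24 and 0.42 ± 0.19, with KO on chow replicate 1 inside the range of the controls. Cd68 differed by 0.48 ± 0.24, Cx3cr1 by 0.32 ± 0.20, Tmem119 by 0.16 ± 0.17 and Csf1r by 0.14 ± 0.20. The genes with a value below 0 were Slco2b1, an organic anion transporter, at -0.08 ± 0.26 and Lyz2 at -0.07 ± 0.84.

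The KO difference on chow changed with the doubted libraries. Without both of them the median was 0.25, 27 of the 35 genes were above 0 and 2 had an unadjusted p under 0.05, and Tmem119 stood at -0.025. Leaving out Control_Chow replicate 3 alone also left 2 genes at that level, while leaving out KO_Chow replicate 1 gave 13 and a median of 0.52. With the sex term taken from the reads the count was 4, and with no sex term it was 13. Part of the difference in sex between the groups on chow falls together with genotype, and its part in the result was not tested beyond these fits.

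KO against control on HFD gave little difference in these genes. The median log2 fold change of the 35 was 0.11, with 27 above 0 (49% of all genes) and 1, Hcar2, at an unadjusted p under 0.05, a level at which 0.758% of all genes were higher and 0.906% lower. edgeR called 0 genes at an adjusted p under 0.05 (smallest adjusted p 1), and DESeq2 and voom also called 0 genes, each with 1 member at an unadjusted p under 0.05. C1qb differed by -0.01 ± 0.18 (95% interval -0.39 to 0.38), C1qa by 0.03 ± 0.22, Trem2 by 0.18 ± 0.19, P2ry12 by 0.11 ± 0.12 and Cx3cr1 by -0.06 ± 0.18. C1qb was at 92.0, 94.0 and 124 CPM in KO on HFD and 79.7, 129.7, 85.6 and 112 CPM in controls on HFD, and the control range enclosed that of the KO. Hcar2 was at 0.613, 0.609 and 1.12 CPM in KO on HFD and 0.361, 0.675, 0.176 and 0.425 CPM in controls on HFD. The lowest of these was the library labelled Control_HFD replicate 3, the groups overlapped, and the difference was 0.93 ± 0.39, or 0.58 without both doubted libraries. Mpeg1 was the member without overlap, at 5.92, 5.52 and 7.27 CPM in KO on HFD and 2.98, 5.07, 3.39 and 5.14 CPM in controls on HFD. Non-overlap with KO higher occurred in 1.6% of all genes, and Mpeg1 differed by 0.51 ± 0.32. The median of the 35 fell on either side of 0 with single libraries out, at -0.03 without KO_HFD replicate 3 and 0.23 without Control_HFD replicate 2.

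HFD against chow in KO mice gave a median of 0.28 over the 35 genes, with 33 above 0 (49.7% of all genes). Tmem119 and Inpp5d were the 2 members at an unadjusted p under 0.05, where 1.98% of all genes were higher and 2.07% lower. No gene was called by edgeR (smallest adjusted p 0.98). DESeq2 and voom called 9 and 0 genes, none of them members, with 4 and 3 members at the unadjusted level. Tmem119 was at 31.1, 41.4 and 44.5 CPM in KO on HFD and 22.0, 36.7 and 27.8 CPM in KO on chow, with overlap, a difference of 0.44 ± 0.17. Inpp5d was at 13.5, 13.6 and 19.8 CPM in KO on HFD and 8.12, 11.1 and 13.7 CPM in KO on chow, a difference of 0.51 ± 0.21. C1qc, at 63.9, 65.8 and 90.1 CPM in KO on HFD and 47.2, 60.6 and 59.1 CPM in KO on chow, was the 1 member whose groups did not overlap, as in 3.6% of all genes, while 4.97% of all genes did not overlap in the opposite order. C1qc differed by 0.40 ± 0.19, C1qa by 0.39 ± 0.23, C1qb by 0.25 ± 0.19 and Trem2 by 0.21 ± 0.20. P2ry12 differed by -0.03 ± 0.13 and Hcar2 by -0.32 ± 0.40.

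The difference between the diet effects was tested as a genotype by diet interaction, KO minus control. Its median over the 35 genes was -0.23, with 8 above 0 (49.1% of all genes), and edgeR called 0 genes (smallest adjusted p 0.91). Ly86 alone of the members had an unadjusted p under 0.05, at -0.57 ± 0.25 (95% interval -1.11 to -0.02), where 2.49% of all genes were lower and 2.61% higher. DESeq2 and voom called 6 and 0 genes, none of them members, with 1 and 0 members at the unadjusted level. All 5 complement and lipid-sensing genes lay between -0.46 and -0.33, and Hcar2 was at -1.11 ± 0.59. Without Control_HFD replicate 2 the median was -0.06. No member thus had a diet effect that differed between KO and control mice past the threshold.

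Averaged over genotypes, HFD against chow gave 35 of 35 genes above 0 (49.4% of all genes), a median of 0.44 and 20 members at an unadjusted p under 0.05, where 3.94% of all genes were higher and 3.01% lower. Averaged over diets, KO against control gave 32 of 35 above 0 (49.9% of all genes), a median of 0.23 and 8 members at that level, where 4.83% of all genes were higher and 4.68% lower. No member passed the adjusted threshold in edgeR, DESeq2 or voom in either, and DESeq2 and voom placed 24 and 21 members at the unadjusted level for diet and 8 and 7 for genotype. Without both doubted libraries the genotype median was 0.06, with 1 member at the unadjusted level.

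**Figure D4:**
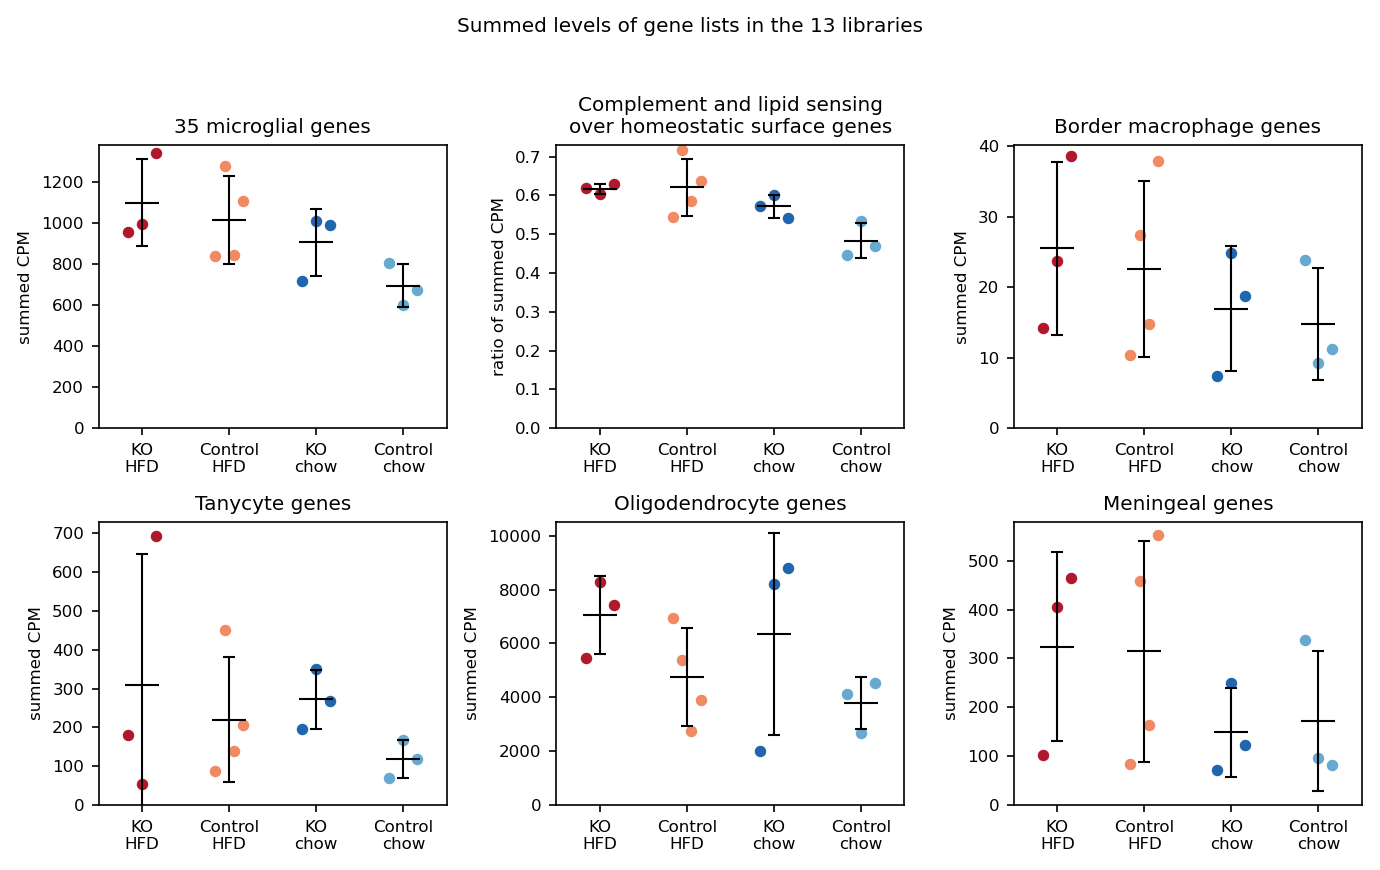
Summed CPM of gene lists in the 13 libraries, and the ratio of complement and lipid-sensing to homeostatic surface genes; each point is 1 library and the bar is the group mean with its SD (n = 3, or 4 for controls on HFD). The ratio is lowest in the chow controls, and the tanycyte, meningeal and border macrophage sums spread widely within groups.

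The balance of complement and lipid-sensing to homeostatic surface genes was taken as the ratio of their summed CPM. It was 0.619, 0.604 and 0.630 in KO on HFD and 0.544, 0.716, 0.586 and 0.636 in controls on HFD. On chow it was 0.572, 0.600 and 0.542 in KO and 0.445, 0.534 and 0.471 in controls. The 3 chow controls had the 3 lowest ratios of the 13 libraries, with the nearest library at 0.542, every KO on HFD lay above every KO on chow, and controls on HFD overlapped both KO groups. The median log2 fold change of the 12 homeostatic genes minus that of the 5 complement and lipid-sensing genes was -0.43 for diet in controls and -0.27 for KO on chow. It was -0.12 for diet in KO and 0.04 for KO on HFD. The first of these stayed between -0.52 and -0.29 over the other settings tried and the second between -0.34 and -0.16.

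Other genes of the lipid-associated state were read for comparison. Of 16 such genes, 8 were higher and 0 lower at an unadjusted p under 0.05 for diet in controls, with a median of 0.37. For KO on chow, 7 were higher and 1 lower, with a median of 0.28. Over all genes, that level held 4.16% higher and 3.91% lower for diet, and 6.84% higher and 6.07% lower for KO. In either comparison 3 of the 16 lay below 0, down to -0.66 for diet and -1.25 for KO. The genes named next are from those that were higher. Itgax, the integrin CD11c, was at 0.542, 2.21, 0.704 and 0.850 CPM in HFD controls, 0.323, 0.561 and 0.684 CPM in KO on chow and 0.317, 0.161 and 0.0270 CPM in chow controls. Cst7, cystatin F, an inhibitor of lysosomal proteases, was at 0.211, 1.43, 0.374 and 0.381 CPM in HFD controls, 0.246, 0.534 and 0.558 CPM in KO on chow and 0.115, 0.138 and 0.0809 CPM in chow controls. Both genes were lowest in the 3 chow controls, at 1 to 11 counts for Itgax and 3 to 6 counts for Cst7. Itgax differed by 2.79 ± 0.64 for diet in controls (edgeR adjusted p 0.56) and by 1.95 ± 0.72 for KO on chow (adjusted p 0.30). Cst7 differed by 2.37 ± 0.71 for diet in controls, and its adjusted p in edgeR was also 0.56. Cd63, a tetraspanin of late endosomes made by many cell types, differed by 0.42 ± 0.16 and 0.56 ± 0.18 in the same comparisons. On HFD, KO against control, 0 of the 16 had an unadjusted p under 0.05.

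A list of 25 other microglia-enriched genes shares no gene with the 35 but was likewise chosen with earlier results of these data known. Its median was 0.37 for diet in controls, with 24 above 0 (51% of all genes). At an unadjusted p under 0.05, 8 were higher (4.16% of all genes) and 0 lower. For KO on chow its median was 0.18, with 19 above 0 (49.6% of all genes). At that level 4 were higher (6.84% of all genes). Cst3, cystatin C, which astrocytes also express, differed by 0.38 ± 0.10 for diet in controls and 0.44 ± 0.11 for KO on chow. Bin2, a leukocyte membrane-curvature protein, differed by 0.66 ± 0.17 and 0.58 ± 0.19 in the same comparisons.

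Among 12 activation cytokine and sensor genes, 10 were tested, since Tnf and Il6 did not pass the filter on low counts. At an unadjusted p under 0.05, where 4.16% of all genes were higher for diet in controls, 2 of the 10 were higher. These were Nlrp3, the inflammasome sensor, at 0.87 ± 0.31 and Ccl2, a monocyte chemokine, at 2.27 ± 0.75 with 0.718 CPM or less in every library. Nlrp3 was also higher at that level for diet in KO, at 1.12 ± 0.32. Of 16 survival and restraint signals, 1 was lower at that level for KO against control on chow (6.07% of all genes). On HFD 1 was higher in KO (0.758% of all genes), and averaged over diets 1 was higher (4.83%). For diet, 2 were higher in controls (4.16% of all genes) and 1 in KO (1.98%). Tgfb1, a growth factor that maintains the microglial state, was the gene common to both diet comparisons, with 0.62 ± 0.24 and 0.69 ± 0.25. Cx3cl1, the ligand of Cx3cr1, was at 364 to 599 CPM over all libraries and had no unadjusted p under 0.05 in the genotype comparison on chow (-0.24 ± 0.17).

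Markers of other cells moved with the microglial level in several libraries. The libraries with the highest sums of the 35 genes, KO_HFD replicate 3 and Control_HFD replicate 2, also had the highest sums of 8 tanycyte genes, 693 and 449.7 CPM against 54.3 to 350.5 CPM elsewhere. In 8 neuronal genes they were at 2684 and 3417 CPM, where the others were at 3341 to 4895 CPM. With this pair left out, an alternative chosen after seeing the data, the medians of the 35 were 0.35 for diet in controls and 0.17 for diet in KO, and 14 and 0 of the genes had an unadjusted p under 0.05. On chow, 8 of 8 tanycyte and 8 of 8 oligodendrocyte genes had a log2 fold change above 0 in KO against control, with medians of 1.06 and 0.55, and 8 of 8 neuronal genes lay below 0, with a median of -0.31. For diet in controls, 8 of 8 tanycyte and 8 of 8 oligodendrocyte genes were above 0, with medians of 0.92 and 0.35, and 8 of 8 neuronal genes lay below 0, with a median of -0.16. Genes of ependymal cilia, from the cells that line the ventricle, were above 0 in 8 of 8 for KO on chow, with a median of 1.59, and in 7 of 8 for diet in controls, with a median of 0.34. Meningeal genes were above 0 in 8 of 8 for diet in controls, with a median of 0.51, and in 8 of 8 for diet in KO, with a median of 1.34. Of 7 pituitary genes tested, 5 were above 0 for diet in controls, with a median of 2.02, and 6 for diet in KO, with a median of 2.44, and averaged over genotypes 3 had an unadjusted p under 0.05. Pituitary genes summed to 6.84 to 316 CPM in KO on HFD, 5.30 to 194 CPM in controls on HFD, 6.89 to 42.2 CPM in KO on chow and 9.65 to 11.6 CPM in controls on chow. The 3 libraries highest in the 35 genes, KO_HFD replicate 3 and Control_HFD replicates 2 and 4, were also the 3 highest in pituitary genes, at 316, 88 and 194 CPM, and in meningeal genes, at 464, 459 and 553 CPM. The tanycyte sum was 197 to 350.5 CPM in KO on chow, 86.9 to 449.7 CPM in HFD controls and 69.9 to 167 CPM in chow controls. Over all genes, 49.6% lay above 0 for KO on chow, 51% for diet in controls and 49.7% for diet in KO. The part of these other cells, and of how the tissue was cut, in the microglial differences was not tested.

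**Figure D5:**
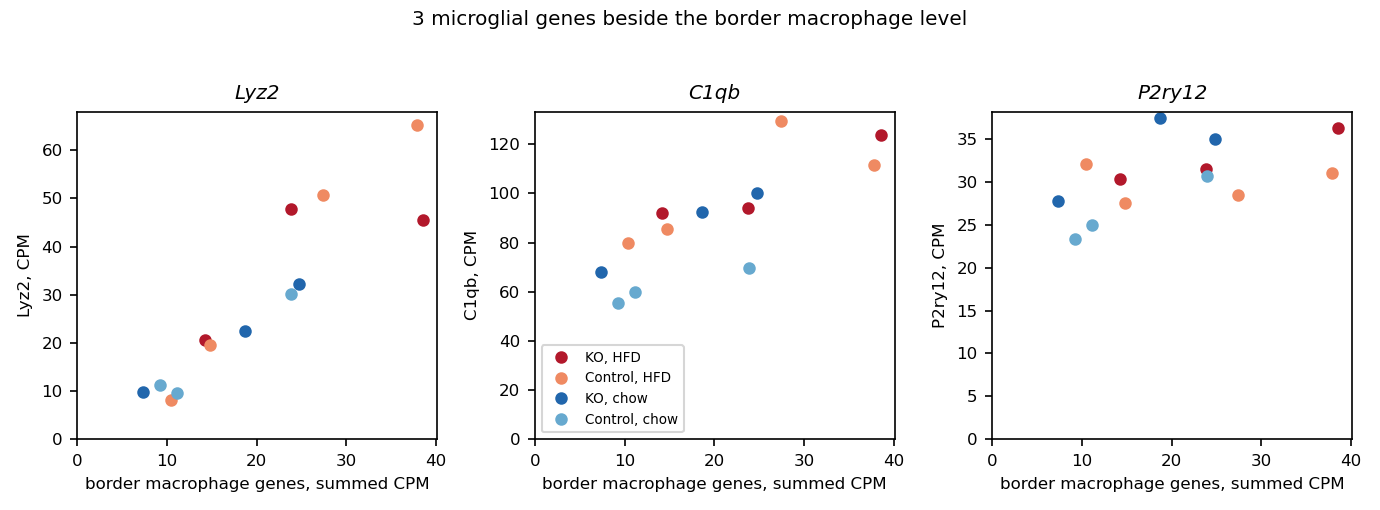
CPM of Lyz2, C1qb and P2ry12 (vertical) against the summed CPM of 10 border macrophage genes (horizontal) in the 13 libraries, coloured by group. Lyz2 spans 8.20 to 65.2 CPM and is highest where the border macrophage sum is high; P2ry12 stays between 23.3 and 37.5 CPM.

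Macrophages at the borders of the brain share several of the 35 genes. Their own 10 markers summed to 14.2, 23.8 and 38.6 CPM in KO on HFD and 10.4, 27.4, 14.8 and 37.9 CPM in controls on HFD. On chow they summed to 7.34, 24.8 and 18.7 CPM in KO mice, against 23.9, 9.24 and 11.2 CPM in control mice. Lyz2 was at 20.6, 47.8 and 45.5 CPM in KO on HFD and 8.20, 50.7, 19.6 and 65.2 CPM in controls on HFD. On chow Lyz2 was at 9.77, 32.2 and 22.4 CPM in KO mice, against 30.2, 11.3 and 9.59 CPM in control mice. Libraries with at least 23.8 CPM of border markers had 30.2 CPM of Lyz2 or more, and the others had 22.4 CPM or less. The same libraries were high in meningeal genes, at 251 to 553 CPM against 72.4 to 163 CPM in the others. The difference of Lyz2 by diet in controls was 0.85 ± 0.74. It has a close paralogue, Lyz1, listed at 0.135 to 1.79 CPM. For diet in controls, 6 of 10 border markers lay above 0, with a median of 0.27 and 0 at an unadjusted p under 0.05. For diet in KO, 9 of 10 lay above 0 (49.7% of all genes), with a median of 0.61, against 0.28 over the 35 genes. There, 1 was higher at an unadjusted p under 0.05 (1.98% of all genes). Averaged over genotypes, 9 of 10 lay above 0 (49.4% of all genes), with a median of 0.54, against 0.44 over the 35. For KO against control, 4 of 10 lay above 0 on chow, with a median of -0.50. On HFD 5 of 10 did, with a median of -0.01. Blood leukocyte markers summed to 3.28 to 9.27 CPM over all libraries, and 7 of the 12 passed the filter on low counts.

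Exons of 5 members overlap another annotated gene, and without a stated strand setting reads of these stretches cannot be assigned. The overlap was 9 bases in P2ry12, 78 in Cx3cr1, 549 in Slco2b1 and 873 in Csf1r, all with genes on the opposite strand. In Itgam it was 3450 bases with the predicted gene Gm49368 on the same strand, 68.7% of the exon length, so the level of Itgam is uncertain.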

How the data were processed

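Per the labels, Trizol was used to extract total RNA from the arcuate nucleus, and the library kit was Takara SMART-Seq v4 Ultra Low Input. The authors deposited 1 table of read counts per gene with the matching RPKM. Per the submitters' processing notes, the build was mm10 and the tools included FastQC, STAR, Subread, STAR-Fusion and edgeR. Their roles, the annotation and the strand setting were not given in the sources used here. Deposited RPKM served only to compare levels between genes.

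Groups were taken from the sample titles. A mouse number recurs in the titles of Control_HFD replicates 1 and 2, and another in those of Control_HFD replicate 3 and KO_HFD replicate 2, and what it marks is not given. The lowest chi-square per degree of freedom between libraries of a group was 16.4, well above sampling noise, and all 13 were treated as separate samples.

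The deposited counts were tested with edgeR 4.0.16 (R 4.3.3): TMM normalization, the default filter, a robust quasi-likelihood F test, all 13 libraries in 1 model with the 4 groups and a term for the sex letter, 8 residual degrees of freedom, and Benjamini-Hochberg adjustment over 23622 genes at 0.05. The 7 comparisons were each genotype contrast, each diet contrast, their means and the interaction. CPM is the count over the library total. The median deviations use TMM-scaled log2 CPM with a prior count of 2. Errors of fold changes are SE. The alternatives were RLE, DESeq2 1.42.0, voom (limma 3.58.1), no filter, no sex term or one from the reads, only the compared groups, and libraries left out. Simulated counts of independent genes with a common dispersion served only to check that the fit recovers large changes. They held no shifts in tissue content between libraries, so they are no check of the differences given here.

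Members and lists were chosen with earlier results of these data known, so no test over a list was made. Every member could be named. Statistics are given for those at an unadjusted p under 0.05 and for C1qa, C1qb, C1qc, Trem2, Tyrobp, P2ry12, Tmem119, Cx3cr1, Csf1r and Cd68, and of other lists up to 4 genes with the smallest p were named. Cx3cl1, Hcar1 and Lyz1 were named as the ligand or relatives of a member. The doubted libraries were kept in their labelled groups. Some genes of the comparison lists are not reported here.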

Additional observations from a re-analysis of the deposited data

Results flagged for a closer look

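Within the 4 controls on HFD, the 1 group large enough to ask the question, each of the 35 genes was checked for a library far from the rest. Itgam was the gene that stood out, with Control_HFD replicate 2 at 31.9 CPM and the other 3 libraries at 20.8 to 22.0 CPM. Chance marks about 1 in 20 groups in this way, so 1 of 35 is not more than chance gives.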

How the results depend on the processing

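Members called at an adjusted p under 0.05 stayed at 0 in all 7 comparisons under every alternative except DESeq2 for HFD against chow in controls, where it was 2, C1qc (0.73, adjusted p 0.045) and Ly86 (0.83, adjusted p 0.014). Over all genes DESeq2 called 333 for KO on chow, 54 for KO over both diets, 46 for HFD in controls, 9 for HFD in KO, 11 for HFD over both genotypes and 6 for the interaction, against 0 by edgeR. Without the filter edgeR called 1 for KO on chow and 5 for HFD in controls, and with only the compared groups 1 for KO on chow. Without both doubted libraries it called 1 each for KO on chow, on HFD and over both diets. With 1 library left out it called 0 to 1 for KO on chow and on HFD, 0 to 2 for KO over both diets and for HFD in controls, and 0 to 3 for HFD over both genotypes. No median of the 35 genes moved by as much as 0.26 (log2), the SD between replicates of their median level. That SD is larger in size than the medians for KO on HFD (0.11), KO over both diets (0.23) and the interaction (-0.23). For these the rule could not mark a fall to 0, and the KO on HFD median changed sign with 1 library left out.

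Signs changed for small differences, none called. For KO on HFD without both doubted libraries, C1qa was -0.17, C1qc -0.022, Cd68 -0.14, Csf1r -0.086 and Tyrobp -0.13, and for KO over both diets Csf1r was -0.036 and Cx3cr1 -0.044. On chow Tmem119 was -0.025 under that setting. For KO on HFD, C1qb was 0.012 with voom, 0.019 with no sex term, 0.0094 with only the compared groups and 0.065 without the tanycyte-rich pair, which put Hcar2 at -0.082 for HFD over both genotypes. Tmem119 was -0.018 for the interaction with no sex term. With 1 library left out, KO on HFD ranged over -0.14 to 0.22 for C1qa, -0.13 to 0.15 for C1qb, -0.0022 to 0.30 for C1qc, -0.11 to 0.22 for Cd68, -0.070 to 0.20 for Csf1r, -0.22 to 0.057 for Cx3cr1 and -0.12 to 0.18 for Tyrobp. HFD in KO ranged over -0.0080 to 0.23 for Cx3cr1 and -0.14 to 0.054 for P2ry12, and the interaction over -0.22 to 0.089 for Csf1r and -0.16 to 0.18 for Tmem119. The cause was not tested. No paired analysis was possible because replicate numbers follow accession order and pair no mice, and only 1 mouse number in the titles is shared between compared groups. Depth limited Hcar2, at 8 to 56 counts per library.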
